A study of Homo sapiens with 15 samples.

Results

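SWI/SNF complexes, also called BAF complexes, are assemblies of many subunits that use ATP to slide or evict nucleosomes and so open DNA to transcription factors. Each complex holds 1 of a pair of ATPases, a scaffold shared by all forms, and subunits that define its form, such as the ARID1 proteins of canonical BAF and ARID2 and PBRM1 of PBAF. Several subunits are known tumor suppressors that are often mutated in human cancers, lung cancer included, and others are exchanged for a paralog when cells take on a tissue-specific identity. The transcript levels of 10 subunits were followed here in BEAS-2B cells, a long-established cell line from human bronchial epithelium, during exposure to PET-NPLs, nanoplastic particles of polyethylene terephthalate. The genes were SMARCA4, SMARCA2, ARID1A, ARID1B, ARID2, PBRM1, SMARCB1, SMARCC1, SMARCD3 and ACTL6A. They were taken by their Entrez gene numbers from a table of 28395 genes, and all 10 passed the filter on low counts that left 16740 genes.

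RNA was sequenced from 15 samples in 6 conditions. Cells exposed to 50 µg/mL PET-NPLs were compared with untreated, passage-matched control cells after 24 h (2 control and 2 exposed samples), 15 weeks (2 and 2) and 30 weeks (3 and 4). According to the sample labels, batch 1 held all libraries of 24 h and 15 weeks and batch 2 those of 30 weeks, so exposed and control cells of 1 time point share a batch, whereas a change from 15 to 30 weeks and the change of batch cannot be told apart. No source used here states whether replicates came from separate cultures, and p-values then measure only the spread between these samples.

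Total counts ran from 23143202 to 31459990 per sample. Between 9.75% and 12.9% of the counts at 24 h and 15 weeks fell on 6 small noncoding RNAs, against 22.3% to 31% in the 30-week controls and 17.0% to 21.5% in the 30-week exposed samples. Of 8 epithelial markers, KRT8 and KRT18 were present in every sample, whereas KRT5, a marker of basal cells, had 2 to 12 counts per sample at 24 h and 0 at 15 and 30 weeks. TP63, another basal marker, CDH1 and EPCAM had means under 1 CPM in all 6 conditions. KRT8 had a mean of 150 CPM in the 30-week controls and between 482 and 616 CPM in the other conditions. KRT7 had means of 1314.7 CPM in control and 1375.7 CPM in exposed cells at 24 h. It was at 18 and 5.84 CPM at 15 weeks and at 1.93 and 1.92 CPM at 30 weeks. KRT19 had 11 and 10.6 CPM at 24 h and 0.766 and 2.88 CPM at 30 weeks. Exposed replicate 2 at 30 weeks stood apart from the other 3 exposed samples, with Pearson's r of log2 CPM across genes of 0.976 to 0.981 against 0.991 among those 3. Any of the 10 genes that reached significance at 30 weeks only without it is given both ways.

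Levels are given in CPM, counts of a gene in a library of 1000000 counts, after scaling by the trimmed mean of M-values (TMM). Fold changes, standard errors (SE) and adjusted p-values come from edgeR's quasi-likelihood fit of all 15 samples, with Benjamini-Hochberg adjustment over the 16740 genes and a threshold of 0.05. Levels of different genes were compared per kilobase of the canonical transcript. The transcripts that the cells made were not measured, so this scale is approximate. Because these are bulk samples, fewer cells of a type and less RNA per cell cannot be told apart in any value below.

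Per kilobase, ACTL6A was the most abundant of the 10 subunits in every condition, with a mean of 57.3 CPM per kilobase in 24 h controls and 53.4 in 30-week controls. PBRM1 (24.1), SMARCC1 (20.4) and SMARCA4 (14.5) followed in the 24 h controls, and ARID1B (3.60) and SMARCD3 (3.27) came last, with ranges that overlapped each other. In the 30-week controls SMARCD3 was second at 22.2 CPM per kilobase, a level whose range overlapped that of SMARCA4 (21.0). In the 30-week exposed cells it was eighth at 7.65 CPM per kilobase, between SMARCA2 (9.56) and ARID2 (4.16), and its range overlapped neither. Its range of 6.98 to 8.18 lay within that of ARID1A (4.79 to 13.2), which had a higher mean.

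SMARCD3, also called BAF60C, is the SMARCD paralog known from heart and skeletal muscle, where it serves muscle transcription factors. It lies on chromosome 7, at chr7:151238780-151277149 of GRCh38, on the minus strand (Entrez gene 6604). Because it had the largest change of the 10 genes, the 250 bases before a pair of its annotated starts are shown, from RefSeq (GRCh38.p14). Capitals mark E-boxes, the motif CANNTG that muscle factors and many other basic helix-loop-helix proteins bind, which reads the same on both strands.
SMARCD3, before the start farthest upstream, chr7:151277150-151277399, minus strand: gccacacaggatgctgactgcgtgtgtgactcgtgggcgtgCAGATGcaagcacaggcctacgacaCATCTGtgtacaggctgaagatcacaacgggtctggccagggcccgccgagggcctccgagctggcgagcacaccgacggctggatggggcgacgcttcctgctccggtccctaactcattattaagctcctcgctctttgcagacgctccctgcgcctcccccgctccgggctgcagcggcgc
SMARCD3, before the start of the canonical transcript, chr7:151248695-151248944, minus strand: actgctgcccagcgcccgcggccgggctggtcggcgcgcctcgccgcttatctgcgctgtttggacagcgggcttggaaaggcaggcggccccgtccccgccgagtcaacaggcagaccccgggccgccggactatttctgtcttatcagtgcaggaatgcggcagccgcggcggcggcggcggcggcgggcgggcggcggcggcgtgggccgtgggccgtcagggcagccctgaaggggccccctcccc

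The upstream window held 2 E-boxes, CAGATG and CATCTG, and the canonical one held 0. E-boxes are common, and 61.8% of 35116 promoter windows of this length held at least 1, so these matches describe the letters only. RefSeq windows were found for 7 of the 10 genes, and 10 of their 15 windows held an E-box. The counts are per gene and do not show which start was used.

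SMARCD3 was lower in exposed than in control cells at 30 weeks. The 3 control samples had 43.3, 39.1 and 44.7 CPM, from 1006 to 1250 counts, and the 4 exposed samples had 14.7, 13.3, 14.7 and 15.6 CPM, from 380 to 443 counts. Every exposed sample lay below every control sample. The mean was 42.4 ± 2.91 CPM (SD, n = 3) in controls against 14.6 ± 0.944 CPM (SD, n = 4) after exposure. The log2 fold change was -1.54 (SE 0.12, 95% interval -1.79 to -1.28, edgeR adjusted p = 1.5e-07). Exposed cells thus held 0.344 times the control level, and the change was called under all 19 alternative settings, with log2 fold changes from -1.59 to -1.45.

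At the earlier time points the SMARCD3 levels of exposed and control cells overlapped. At 24 h the controls had 5.99 and 6.47 CPM and the exposed samples 6 and 7.55 CPM. At 15 weeks the controls had 10.1 and 12.1 CPM and the exposed samples 10.2 and 11.7 CPM. The log2 fold changes were 0.12 (95% interval -0.24 to 0.49) and -0.025 (-0.38 to 0.32), and neither was called. The exposure effect at 30 weeks differed from that at 15 weeks by -1.51 on the log2 scale (SE 0.20, edgeR adjusted p = 0.000257). SMARCD3 was the only 1 of the 10 genes called in this comparison, which called 4.74% of all genes.

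The difference at 30 weeks arose between control cells that stood 3.81-fold above the 15-week controls (log2 fold change 1.93, edgeR adjusted p = 2.23e-07) and exposed cells that stood 1.34-fold above theirs (0.42, adjusted p = 0.0244). The rise in exposed cells was not called in 8 of 17 alternatives, among them a replicate block (0.36, adjusted p = 0.105), limma-voom with 2 surrogate variables (0.31, adjusted p = 0.105), leaving out exposed replicate 1 or 2 of 15 weeks or exposed replicate 4 of 30 weeks (adjusted p = 0.218, 0.0559 and 0.0538), and libraries adjusted for GC content (0.03, adjusted p = 0.863), the last chosen after seeing the data. The control rise was called in all 16 of its alternatives, with log2 fold changes from 1.5 to 2.07. Both crossed the batches. Within batch 1, SMARCD3 rose from 24 h to 15 weeks in control cells (log2 fold change 0.83, adjusted p = 0.00163) and in exposed cells (0.69, adjusted p = 0.00641). The second of these was not called without exposed replicate 1 of 24 h (adjusted p = 0.0828) or without exposed replicate 2 of 15 weeks (0.0694).

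Of the skeletal muscle markers, MYOD1 and TNNT1 differed in the same direction as SMARCD3 at 30 weeks. From 24 h to 15 weeks, where SMARCD3 rose, the markers were mixed. The summed level of 8 such markers was 256 to 346 CPM in the 30-week controls, 27.4 to 38.9 CPM in the 30-week exposed samples, 27.7 to 36.5 CPM at 24 h and 11.6 to 26.3 CPM at 15 weeks. Of the 4 markers that could be tested, MYOG and DES passed the filter on low counts through the 30-week controls alone. Their lower level in exposed cells at 30 weeks was therefore set by the filter. MYOD1 and TNNT1 were also called lower, where 11.7% of all genes were. MYOD1, the myogenic master regulator, had means of 85.3 CPM in controls and 0.462 CPM in exposed cells. TNNT1, a slow troponin, had 208 and 33.3 CPM. From 24 h to 15 weeks MYOD1 rose from 0.383 to 3.87 CPM in control cells and from 0.31 to 1.46 CPM in exposed cells. TNNT1, which made up most of the sum at these times, fell from 29.3 to 17.9 CPM and from 33.3 to 12 CPM. In each arm 1 of the 4 tested markers was called higher and 1 lower, where 24.9% and 26.0% of all genes were called. MYOG had at most 1 count and DES at most 5 counts in each of these samples. The count of markers therefore cannot be set against the share of all genes. MYF5 and MYF6 were at 0 in all conditions. The muscle creatine kinase CKM and the actin gene ACTA1 had means under 1 CPM. At 30 weeks CKM had 0.036 CPM in controls and 0.0534 CPM in exposed cells, and ACTA1 had 0.0839 and 0.107 CPM. The part of the muscle markers in the SMARCD3 difference was not tested. Over the 15 samples the genes most like SMARCD3 in log2 CPM, of 9432 with a mean of at least 10 CPM, were ITGA7, an integrin of muscle cells (Pearson's r = 0.992), and LRIG1 (r = 0.990). These r describe 15 samples that share the same 6 conditions and 2 batches.

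**Figure D1:**
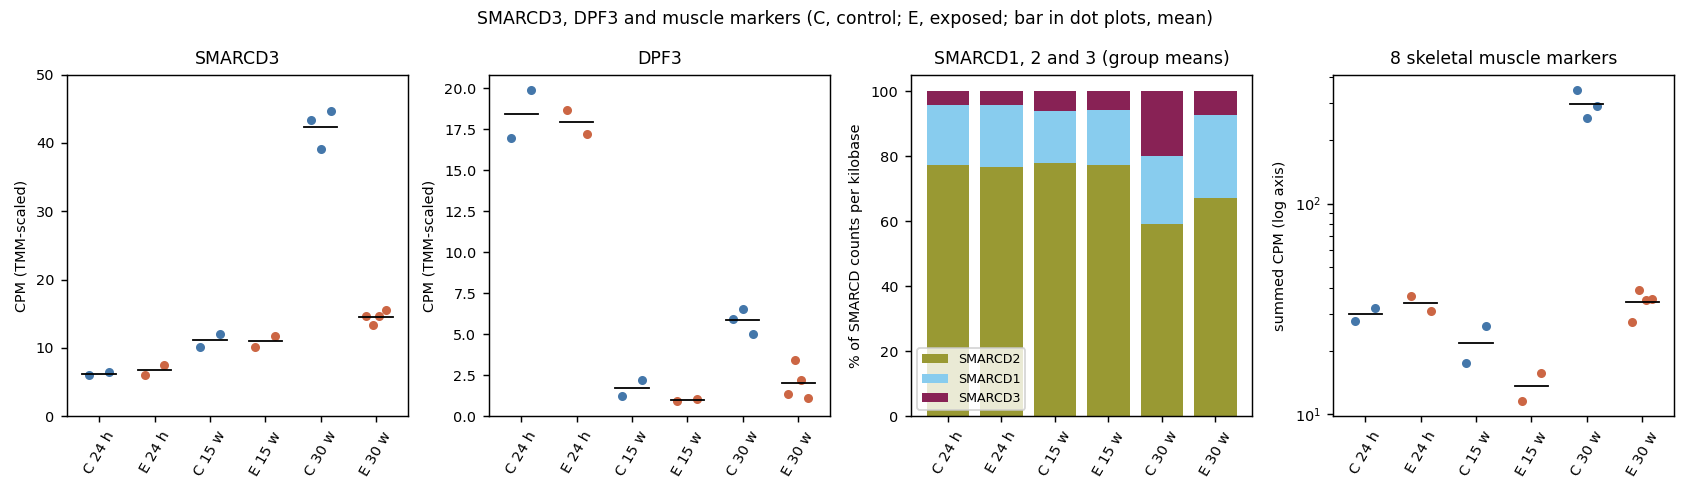
SMARCD3 and DPF3 in CPM per sample, the mean share of SMARCD1, SMARCD2 and SMARCD3 in their summed counts per kilobase, and the summed CPM of 8 skeletal muscle markers on a log axis, by condition (C, control; E, exposed; horizontal bars, means). The 3 control samples at 30 weeks have the highest SMARCD3 level, SMARCD3 share and muscle marker sum, whereas DPF3 is highest at 24 h.

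The complex takes 1 SMARCD protein, so the share of SMARCD3 among the 3 paralogs was followed. It was 4.32% of the SMARCD counts per kilobase in 24 h controls, 6.28% in 15-week controls and 19.9% ± 1.69 (SD, n = 3) in 30-week controls. The exposed cells had 4.28%, 5.76% and 7.35% ± 0.511 (SD, n = 4) at these times. SMARCD2 was the main paralog in all conditions, with 59.0% in 30-week controls and 67.0% in exposed cells. Neither SMARCD1 nor SMARCD2 was called at 30 weeks. The log2 ratio of SMARCD3 counts to all SMARCD counts, which does not depend on library scaling, was lower by -1.5 in exposed cells, and all 4 exposed samples lay below all 3 controls. The exact two-sided permutation test gave p = 0.0571, the smallest that 3 against 4 samples allow (0.286 after adjustment over 5 ratios).

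Another feature of the locus could bear on these counts, which was not tested. SMARCD3 shares 43 bases with CHPF2, which had 377% of the counts of SMARCD3 over all samples, and the strand setting of the counting is not given in the sources used here. CHPF2 had a log2 fold change of -0.29 at 30 weeks (edgeR adjusted p = 0.0869).

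The ATPases SMARCA4 (BRG1, chromosome 19) and SMARCA2 (BRM, chromosome 9) are mutually exclusive engines of the complex. SMARCA2 was higher in exposed than in control cells at 30 weeks. Control samples had 39.6, 43.1 and 42.3 CPM and exposed samples 60.7, 50.1, 55.2 and 53.7 CPM, so the groups did not overlap. The log2 fold change was 0.40 (SE 0.10, 95% interval 0.18 to 0.62, edgeR adjusted p = 0.0118), or 1.32-fold. The change was not called when the 30-week samples were fitted alone (adjusted p = 0.0712). Leaving out 1 replicate at a time gave adjusted p-values from 0.00224 to 0.0446.

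SMARCA2 did not follow a steady course over time. In control cells it rose from 24 h to 15 weeks, from 44.2 to 59.2 CPM (log2 fold change 0.42, edgeR adjusted p = 0.0323), and was lower again at 30 weeks at 41.7 CPM (-0.51, adjusted p = 0.00287, across the batches). The first of these was not called when any 1 of the 4 samples was left out. Exposed cells had means of 48.3, 56.6 and 54.9 CPM at the 3 times, with no call between neighbouring times. The exposure effects at 30 and 15 weeks differed by 0.46 on the log2 scale, which did not pass the threshold (edgeR adjusted p = 0.172). SMARCA2 had a low spread between replicates, with a within-condition SD of 0.098 on the log2 scale against a median of 0.183 over 9432 genes.

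SMARCA4 was not called at any time point. At 30 weeks control samples had 117, 79.2 and 155 CPM and exposed samples 142, 69.6, 102 and 124 CPM. The groups overlapped over most of their range, and the log2 fold change of -0.10 had a 95% interval of -0.58 to 0.38. Without exposed replicate 2 the log2 fold change was 0.067. The spread of SMARCA4 between replicates (SD 0.37) was larger than that of 93.4% of the genes. The log2 ratio of SMARCA2 to SMARCA4 was higher by 0.49 in exposed cells at 30 weeks, and the exact two-sided permutation test gave p = 0.229 (0.572 after adjustment over 5 ratios).

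**Figure D2:**
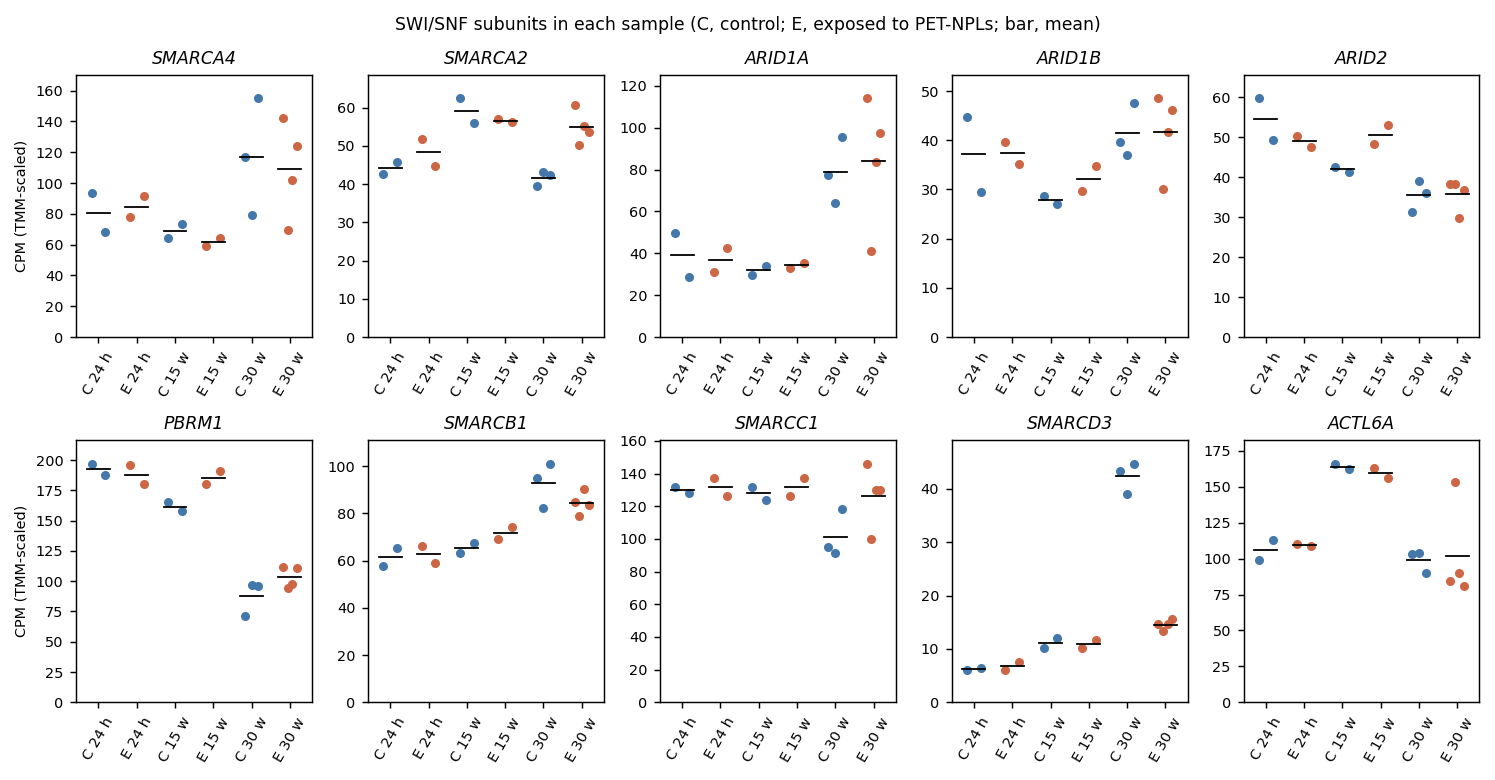
Levels of the 10 subunits in CPM (linear axes from 0) in each of the 15 samples, by condition (C, control; E, exposed; horizontal bars, means). At 30 weeks the exposed and control samples of SMARCA2 and SMARCD3 do not overlap, those of the other 8 genes do, and ACTL6A of 1 exposed sample stands at 153 CPM.

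ARID1A and ARID1B are the alternative large DNA-binding subunits of canonical BAF, and ARID1A is the subunit most often mutated in cancer. Neither was called with exposure. ARID1A had 77.3, 63.9 and 95.6 CPM in 30-week controls and 114, 41.2, 83.7 and 97.7 CPM in exposed samples. The exposed samples spanned the whole range of the controls, with exposed replicate 2 lowest. The log2 fold change was 0.091 (95% interval -0.47 to 0.65), and its sign turned under 4 of the alternative settings. ARID1A had an SD of 0.455 between replicates, above 97.4% of the genes. ARID1B had means of 41.4 and 41.6 CPM and a log2 fold change of 0.0068 (95% interval -0.35 to 0.37). The log2 ratio of ARID1B to ARID1A differed by -0.023 at 30 weeks (exact permutation p = 0.857).

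ARID2 and PBRM1, a protein with several bromodomains that bind acetylated histones, define PBAF. ARID2 was at 35.5 ± 3.96 CPM (SD, n = 3) in 30-week controls, and the exposed cells had nearly the same mean, 35.8 ± 3.99 CPM (SD, n = 4). Its log2 fold change was 0.013 (95% interval -0.24 to 0.27). PBRM1 had 71.3, 96.8 and 96.3 CPM in controls and 112, 94.3, 98.0 and 111 CPM in exposed samples. These groups overlapped in 1 exposed sample, and the log2 fold change of 0.24 (95% interval -0.022 to 0.50) was not called (edgeR adjusted p = 0.177). The log2 ratio of both PBAF genes to both ARID1 genes differed by 0.17 (exact permutation p = 0.629).

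SMARCB1 and SMARCC1 belong to the core that all or most forms share, SMARCB1 as the subunit lost in rhabdoid tumors and SMARCC1 as a scaffold. SMARCC1 had 94.9, 91.3 and 118 CPM in 30-week controls and 146, 100, 130 and 130 CPM in exposed samples. Exposed replicate 2, at 100 CPM, lay within the control range and the other 3 lay above it. The log2 fold change of 0.32 (95% interval 0.042 to 0.60) had an unadjusted p of 0.0266 and an edgeR adjusted p of 0.0897. Without exposed replicate 2 it was 0.42 (adjusted p = 0.00586), without control replicate 3 it was 0.45 (0.0346), and with limma-voom and 2 surrogate variables it was 0.27 (0.0378). SMARCB1 had means of 92.9 and 84.4 CPM and a log2 fold change of -0.14 (95% interval -0.37 to 0.089).

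ACTL6A, or BAF53A, is the actin-like subunit of proliferating cells and also serves other chromatin complexes. Its 30-week controls had 103, 104 and 89.8 CPM and the exposed samples 84.3, 153, 89.7 and 80.7 CPM. Exposed replicate 2 lay far above all others and the other 3 exposed samples lay below the lowest control. The log2 fold change was 0.042 (95% interval -0.34 to 0.42) with this sample and -0.22 without it. ACTL6A shares 123 bases with MRPL47, which had 56.6% of its counts.

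In all, 2 of the 10 subunits were called at 30 weeks, 1 higher and 1 lower, against 23.7% of all genes (12.0% higher and 11.7% lower). The same 2 genes were those with all exposed samples on 1 side of all control samples, against 27.3% of all genes. The median log2 fold change was 0.027 over the 10 genes and 0.0078 over all genes. The share of members called was thus near that of the background. At 24 h and at 15 weeks 0 of the 10 genes were called by edgeR, where 0% of all genes were called, and 0 of the 10 had an unadjusted p under 0.05. Unadjusted p-values under 0.05 were found for 277 genes at 24 h and 823 at 15 weeks. At 24 h 0 genes were called under every alternative. At 15 weeks DESeq2 called 17 genes, limma-voom with 2 surrogate variables 19 and the fit of the 15-week samples alone 304, none of them a member. The 95% intervals of the 10 genes reached from -0.83 to 0.70 at 24 h and from -0.79 to 0.85 at 15 weeks, widest for ARID1A, so differences of this size would not have been detectable for every gene.

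**Figure D3:**
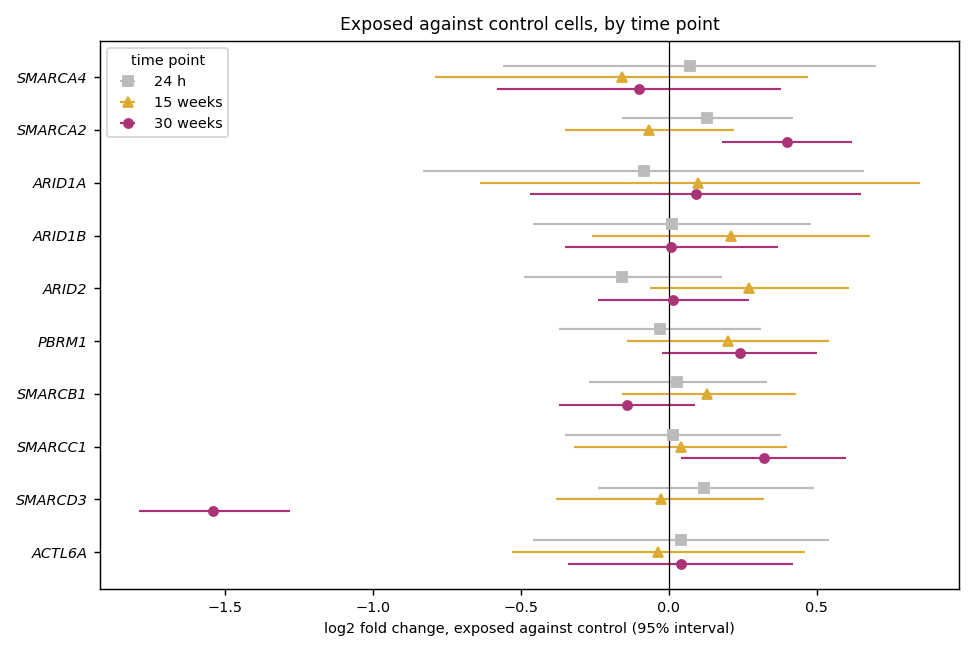
Log2 fold changes of exposed against control cells with 95% intervals for the 10 subunits at 24 h (squares), 15 weeks (triangles) and 30 weeks (circles). SMARCD3 at 30 weeks (-1.54) lies apart from all other values, and the intervals of SMARCA2 (0.40) and SMARCC1 (0.32) at 30 weeks lie above 0, of which SMARCA2 alone passed adjustment.

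Of 19 further SWI/SNF subunits, 18 could be tested. At 30 weeks 2 were called, DPF3 lower and BRD7 higher, against 23.7% of all genes (12.0% higher and 11.7% lower). DPF3 is a reader of modified histones that is known from heart and muscle development. It had 5.93, 6.57 and 5.05 CPM in the 30-week controls and 1.34, 3.43, 2.19 and 1.09 CPM in the exposed samples, with no overlap. Its log2 fold change of -1.53 (SE 0.29, edgeR adjusted p = 0.00101) was close in size to that of SMARCD3. Its course over time was different, with means of 18.5 CPM in 24 h controls and 1.74 CPM in 15-week controls. BRD7, a bromodomain subunit of PBAF, had 22.4, 26.1 and 25.5 CPM in controls and 35, 39.2, 31.5 and 36.9 CPM in exposed samples (log2 fold change 0.53, SE 0.11, edgeR adjusted p = 0.00323). The median over the 18 genes was 0.067. Without exposed replicate 2, 7 of the 18 were called, when 5704 rather than 3961 of all genes were called. None of the 18 was called at 24 h, at 15 weeks or in the change from 15 to 30 weeks by edgeR. Of all genes 0%, 0% and 4.74% were called there. An unadjusted p under 0.05 was found for 0, 1 and 1 of the 18.

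**Figure D4:**
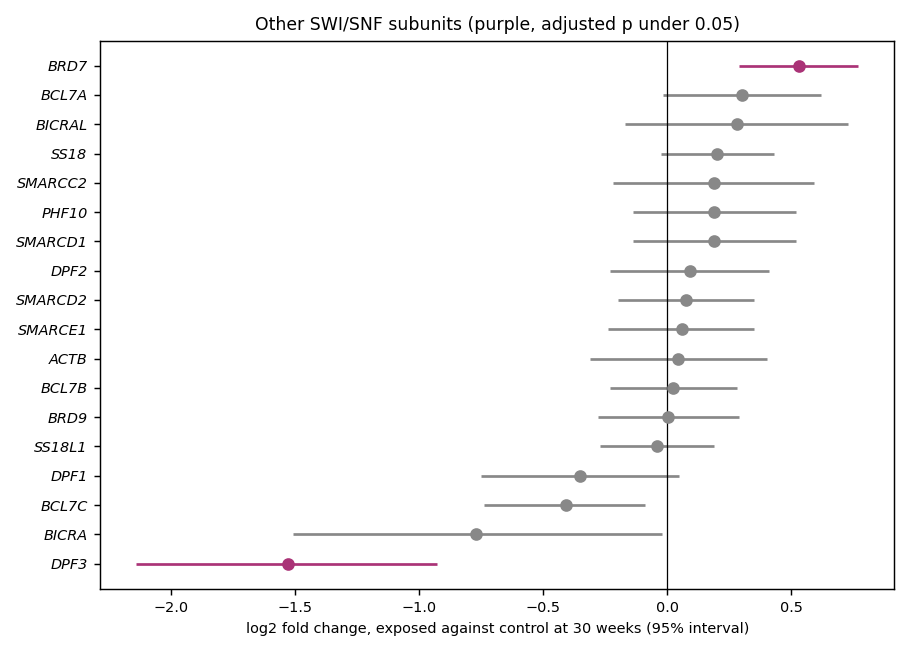
Log2 fold changes of exposed against control cells at 30 weeks with 95% intervals for 18 further SWI/SNF subunits, sorted by value. DPF3 (-1.53) and BRD7 (0.53), in purple, passed the threshold, and the other 16, in gray, did not.

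Time in culture was compared within each arm. From 24 h to 15 weeks, within batch 1, 2 of the 10 genes were called in control cells (SMARCD3 and SMARCA2, both higher) against 24.9% of all genes, and 1 in exposed cells (SMARCD3) against 26.0%. ACTL6A had log2 fold changes of 0.62 and 0.54 that were not called (edgeR adjusted p = 0.0646 and 0.102), and with offsets adjusted for GC content, chosen after seeing the data, both were called (0.69, adjusted p = 0.00709, and 0.55, adjusted p = 0.0254).

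From 15 to 30 weeks, 8 of the 10 genes were called in control cells against 50.3% of all genes. SMARCD3 (1.93), ARID1A (1.31), SMARCA4 (0.77), ARID1B (0.57) and SMARCB1 (0.51) were higher at 30 weeks, where 25.6% of all genes were higher. PBRM1 (-0.88), ACTL6A (-0.72) and SMARCA2 (-0.51) were lower, where 24.6% were lower. The calls of SMARCD3, ARID1A and PBRM1 held in all 16 alternatives, an adjusted p under 0.01 among them. SMARCA4 lost its call in 8, ARID1B in 6, SMARCB1 in 3, ACTL6A in 2 and SMARCA2 in 1. Fewer were called without control replicate 1 of 15 weeks, a fit with 1 control sample at that time. How many of all genes that fit called is not given here, so the drop does not single out these genes. In exposed cells 6 were called against 46.0% of all genes. ARID1A (1.30), SMARCA4 (0.83) and SMARCD3 (0.42) were higher (23.3% of all genes) and PBRM1 (-0.84), ACTL6A (-0.64) and ARID2 (-0.50) lower (22.7%). ARID1A and PBRM1 alone kept their calls in all 17 alternatives. SMARCD3 lost its call in 8, SMARCA4 and ACTL6A in 5 each and ARID2 in 2, and ARID2 turned sign in 1. Fewer were also called without exposed replicate 1 or 2 of 15 weeks, with the same limit.

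The direction of these changes went with base composition. The 5 genes higher in 30-week controls have canonical transcripts of 53.6% to 60.6% GC, and the 5 with negative values have 40.5% to 48.8%. Over all tested genes the median log2 fold change of controls from 15 to 30 weeks was 0.38 for 4797 genes of at least 55% GC and -0.49 for 5855 genes of at most 45% GC, and in exposed cells the medians were 0.37 and -0.48. For exposed against control cells at 30 weeks they were -0.14 and 0.10. With offsets adjusted for GC content, chosen after seeing the data, 4 genes were called in controls (SMARCD3 1.5, ARID1A 0.87, SMARCA2 -0.55 and PBRM1 -0.40) and 2 in exposed cells (ARID1A 0.88 and PBRM1 -0.38). How many of all genes these offsets called from 15 to 30 weeks is not given here. The exposure effects at 30 weeks were then -1.45 for SMARCD3 (edgeR adjusted p = 4.63e-08) and 0.34 for SMARCA2 (0.0124), and the same 2 genes were called.

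The 30-week samples also differed among themselves in this respect. The median log2 deviation from the average of all samples, of genes with at least 55% GC minus genes with at most 45% GC, was between -0.51 and -0.25 in the 24 h and 15-week samples, 0.79, 0.27 and 0.73 in the 30-week controls, and 0.55, -0.061, 0.55 and 0.56 in the exposed samples, the value of -0.061 being that of replicate 2. This sample had the lowest exposed SMARCA4, ARID1A and ARID1B levels and the highest ACTL6A level. The part of base composition in the spread of these genes was not tested.

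The genes most like each member were named by Pearson's r of log2 CPM over the same 15 samples, as a description. ARID1A was closest to CREBBP, a histone acetyltransferase (r = 0.994), and SRRM2, a splicing factor (0.991). PBRM1 was closest to UTRN (0.988) and ZNF37A (0.987), SMARCA4 to the Mediator subunit MED15 (0.979) and MLXIP (0.971), and ACTL6A to UMPS (0.977) and MORF4L2 (0.975). SMARCB1 was closest to PDK2 (0.962) and AAMP (0.957), SMARCC1 to the remodeller CHD4 (0.962) and the histone demethylase KDM3B (0.924), and ARID2 to SECISBP2L (0.961) and the repressor REST (0.957). ARID1B was closest to ATXN1 (0.955) and SEMA4B (0.928), and SMARCA2 to P3H2 (0.924) and IL13RA1 (0.921). The samples share batches and base composition, which enter these values.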

How the data were processed

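Per the study's methods, reads passed quality filtering in Rfastp, mapping to GRCh38 (hg38 in the submitters' processing notes) and counting per gene in Rsubread. The authors deposited the resulting raw counts, without normalization, and these were used here. Libraries were made with a stranded total RNA kit after removal of ribosomal RNA. The strand setting of the counting is not given in the sources used here. The paper's methods test with sva, limma and voom, which were run here as an alternative. Of the 28395 Entrez gene numbers, 27745 carried a symbol.

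Counts were analyzed in R 4.3.3 with edgeR 4.0.16 (filterByExpr, TMM, quasi-likelihood test, 1 mean for each of the 6 conditions), limma 3.58.1, DESeq2 1.42.0 and sva 3.50.0, and the procedure was tested on simulated data. Ratios of paralogs were compared by exact permutation tests. Depth ran from 23143202 to 31459990 counts, and every replicate pair differed by more than sampling noise (chi-square per gene at least 9.02). GC content and length are those of GENCODE v44 canonical transcripts, and 94.9% of the tested genes had a value. All 10 members were named, with the other SWI/SNF subunits called at 30 weeks or in the change from 15 to 30 weeks, the 2 called genes of largest change among other remodellers and Polycomb genes, and the 2 genes most like each member. The members and the lists were chosen with earlier results of these data known. Alternatives were DESeq2, limma-voom with and without 2 surrogate variables, each time point alone, other filters and scaling, no small noncoding RNAs, glmQLFit with its legacy option off, an adjusted p under 0.01, a replicate block, and each replicate left out. Offsets adjusted for GC content were added after seeing the data.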

Additional observations from a re-analysis of the deposited data

Results flagged for a closer look

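ACTL6A in exposed replicate 2 at 30 weeks stood far from the other 3 exposed samples. Its gap to the nearest of them was 0.876 of the group's whole range, above Dixon's 95% critical value for 4 samples. Chance passes this value in about 1 in 20 groups (5%), and 10 genes were examined. The exposure effect on SMARCD3 differed between 15 and 30 weeks by -1.51 on the log2 scale, from an interaction term in edgeR's fit (adjusted p = 0.000257), and the 2 time points lie in separate batches.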

How the results depend on the processing

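At 24 h and 15 weeks 0 members were called under every alternative. At 30 weeks SMARCD3 was called in all 19 alternatives and SMARCA2 in 17. The number of members called there was 1 with the 30-week samples fitted alone, where 2370 of all genes were called (3961 in the main fit). It was 1 at an adjusted p under 0.01 (2166 of all genes) and 2 to 3 when 1 replicate was left out (2491 to 5704). In the change from 15 to 30 weeks it was 2 with limma-voom and 2 surrogate variables, and 1 to 2 with a replicate left out. From 24 h to 15 weeks in controls it was 5 with surrogate variables, 3 with GC-adjusted offsets, 1 at an adjusted p under 0.01 and 1 with any replicate left out, and in exposed cells 3 with surrogate variables, 2 with GC-adjusted offsets and 0 to 1 with a replicate left out. From 15 to 30 weeks it was 4 in controls with GC-adjusted offsets and 3 to 8 with a replicate left out, and in exposed cells 3 at an adjusted p under 0.01, 2 with GC-adjusted offsets and 2 to 7 with a replicate left out. For the comparisons between time points, the number of all genes called under each setting is not given here. These counts therefore cannot be read as results about the members. The cause was not tested.

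Replicate numbers did not pair the samples. Same-numbered samples at 30 weeks had correlations of their deviations of -0.118, 0.303 and 0.098, and not every sample was closest to its own number. With a replicate block 2 members were called at 30 weeks and 3 in exposed cells from 15 to 30 weeks, and the log2 fold changes at 30 weeks of ARID1A (-0.013), ARID1B (-0.055) and ARID2 (-0.0068) turned.

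Only changes that were not called turned sign at 30 weeks. With GC-adjusted offsets they were SMARCA4 (0.021), ARID2 (-0.063) and ACTL6A (-0.076). With limma-voom they were ARID1B (-0.009) and ACTL6A (-0.0077), and with surrogate variables ARID1A (-0.051), ARID1B (-0.077) and ARID2 (-0.13). ARID1B also turned with time points fitted alone (-0.0043), at least 10 counts in every sample (-0.004) and upper-quartile scaling (-0.021), as did ARID2 in the last (-0.018). With a replicate left out the values ran from -0.31 to 0.16 for SMARCA4, -0.089 to 0.32 for ARID1A, -0.075 to 0.13 for ARID1B, -0.062 to 0.09 for ARID2 and -0.22 to 0.14 for ACTL6A. The called decrease of ARID2 in exposed cells from 15 to 30 weeks became 0.0064 with GC-adjusted offsets. Ratios ran from -0.19 to 0.073 (ARID1B to ARID1A) and from -0.055 to 0.37 (PBAF to ARID1 genes) with a replicate left out. Counts of all genes called at 30 weeks ran from 2491 without control replicate 1 to 5704 without exposed replicate 2. With 2 samples in each arm at 24 h and 15 weeks, the widths of the intervals limit what could be seen there.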

Other observations

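Other chromatin regulators were read off the same fit at 30 weeks. Of 31 genes of the ISWI, CHD and INO80 families, 7 were called, 4 higher and 3 lower in exposed cells, near the 23.7% of all genes called (12.0% higher and 11.7% lower). This number was 3 without control replicate 1 (2491 of all genes called, against 3961), 3 without exposed replicate 1 (3038), 4 without exposed replicate 4 (3284) and 11 without exposed replicate 2 (5704). CECR2, a partner of ISWI ATPases, had a mean of 7.49 CPM in 30-week controls and 0.213 CPM in exposed cells (log2 fold change -5.12, edgeR adjusted p = 5.36e-07). CECR2, 1 of the 3 called lower, passed the filter on low counts through the 30-week controls alone. Its lower level in exposed cells was therefore set by the filter. It was at 0 in all 4 samples of 24 h, and at 15 weeks the means were 0.199 CPM in controls and 0.178 CPM in exposed cells, so the 30-week controls stood apart from all other conditions. INO80C, an INO80 subunit, was higher in exposed cells, at 9.51 against 6.63 CPM (0.52, adjusted p = 0.0123).

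Of 28 Polycomb genes, whose products silence chromatin and are known to oppose SWI/SNF, 4 were called, 1 higher and 3 lower, a smaller share than the 23.7% of all genes, a difference that was not tested. There were 2 called without control replicate 1, control replicate 3, exposed replicate 1 or exposed replicate 4. CBX2, a reader subunit of Polycomb repressive complex PRC1, had 2.62, 2.17 and 3.22 CPM in the 30-week controls and 8.73 to 10.4 CPM in the exposed samples (1.86, edgeR adjusted p = 2.52e-07). Its controls had 13.4 and 15.3 CPM at 24 h and 8.53 and 9.59 CPM at 15 weeks. PHC2 was lower in exposed cells, at 43.9 against 62.2 CPM (-0.50, adjusted p = 0.0108).

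Among the other marker lists, the summed fibroblast markers were 403 to 510 CPM in 30-week controls and 306 to 353 CPM in exposed cells. THY1 made up most of these sums, with means of 388 and 317 CPM, and the markers did not move together. COL1A1 was lower in exposed cells (7.36 against 55.3 CPM) and COL1A2 higher (3.2 against 0.312 CPM). Of 5 tested, 1 was called higher and 2 lower, where 12.0% and 11.7% of all genes were. Of these 5, LUM passed the filter on low counts through the 30-week controls alone (0.656 CPM, against 0.105 CPM in exposed cells). Its direction was therefore set by the filter. The epithelial markers summed to 314 to 411 CPM in 30-week controls and 880 to 1097.1 CPM in exposed cells. KRT8 (150 and 616 CPM) and KRT18 (194 and 338 CPM) made up nearly all of these sums. KRT19 was also higher in exposed cells (2.88 against 0.766 CPM). EPCAM (0.175 and 0.151 CPM), CDH1 (0.62 and 0.565 CPM) and KRT7 (1.93 and 1.92 CPM) were alike in controls and exposed cells. KRT5 and TP63 were at or near 0. Endothelial markers summed to 2.90 CPM or less and leukocyte markers to 30.7 CPM or less in every sample.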
